A study of Mus musculus with 12 samples.

Results

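Accessible chromatin was described at 10 mouse genes that set the pace of the cell cycle in G1: the cyclins Ccnd1, Ccnd2, Ccnd3 and Ccne1, the kinase Cdk6, the inhibitors Cdkn1a, Cdkn1b, Cdkn2a and Cdkn2b, and Trp53. Every peak that overlapped the body of such a gene or the 25 kb on either side of it was taken, in GENCODE M21 coordinates of mm10 (GRCm38), without regard to its values. This gave 133 peaks of the 176680 in the authors' deposited table. Of these, 6 lay in the windows of both Cdkn2a and Cdkn2b, whose bodies are 11.65 kb apart.

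The data are ATAC-seq, in which the transposase Tn5 cuts open DNA and tags it for sequencing. Primary fibroblasts (MEFs) came from wild-type C57BL/6N embryos of day 13.5, from limbs of several embryos pooled, and all received the lentiviral transactivator rtTA and 2 ug/mL doxycycline. The 12 libraries formed 4 groups of 3 replicates on day 2: MEF (rtTA alone), Prox1_OE (rtTA and tetO-FLAG-mmProx1), 4in1_GFP_OE (rtTA, the 4in1 cassette LV.4TF and tetO-GFP) and 4in1_Prox1_OE (rtTA, LV.4TF and tetO-FLAG-mmProx1). The 4in1 cassette carries transcription factors that reprogram fibroblasts towards hepatocytes, and Prox1 is a homeodomain factor of hepatocytes. The table covers the last 2 groups, so each value below is the authors' mean over 3 libraries of one arm, in normalized reads per peak, and the comparison asks what added Prox1 does to chromatin during reprogramming.

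Entry into S phase is driven by cyclins that activate their kinases. D-type cyclins bind Cdk4 and Cdk6 and begin the phosphorylation of the retinoblastoma protein, which frees E2F factors, and cyclin E with Cdk2 completes it. The CIP/KIP inhibitors p21 (Cdkn1a) and p27 (Cdkn1b) act on cyclin and kinase complexes, the INK4 inhibitors p16 (from Cdkn2a) and p15 (Cdkn2b) bind Cdk4 and Cdk6, and the alternative Cdkn2a product Arf stabilises p53, which switches on Cdkn1a. Fibroblasts in culture are known to raise p16, Arf and p21 as they senesce.

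The sequences of 8 peaks are given first, because the 4 largest negative and the 4 largest positive differences in these windows were measured there, among peaks whose mean concentration was not in the lowest 25% of the table and which held no annotated UTR base. Each was read from the plus strand of GRCm38.p6, 5′ to 3′. Capitals mark an AP-1 motif (TGACTCA or TGAGTCA) or a TEAD motif (GGAATG or its reverse complement), the sites of factor families with known roles in fibroblast enhancers. The first 4 had lower means with Prox1.

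Cdkn1b window, chr6:134943851-134944051: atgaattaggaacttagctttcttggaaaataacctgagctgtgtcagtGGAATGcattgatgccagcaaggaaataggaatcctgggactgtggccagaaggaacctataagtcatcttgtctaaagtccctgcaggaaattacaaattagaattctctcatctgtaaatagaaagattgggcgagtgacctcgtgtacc

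Cdkn2a window, chr4:89257847-89258047: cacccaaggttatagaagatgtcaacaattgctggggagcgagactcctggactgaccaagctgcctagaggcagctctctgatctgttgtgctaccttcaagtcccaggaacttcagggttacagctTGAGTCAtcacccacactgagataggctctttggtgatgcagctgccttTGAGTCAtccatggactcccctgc

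Ccnd1 window, chr7:144964014-144964214: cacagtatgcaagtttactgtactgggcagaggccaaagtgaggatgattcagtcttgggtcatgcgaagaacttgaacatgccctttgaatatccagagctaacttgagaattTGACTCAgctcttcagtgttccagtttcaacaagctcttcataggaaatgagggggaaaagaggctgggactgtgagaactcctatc

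Ccnd3 window, chr17:47542024-47542224: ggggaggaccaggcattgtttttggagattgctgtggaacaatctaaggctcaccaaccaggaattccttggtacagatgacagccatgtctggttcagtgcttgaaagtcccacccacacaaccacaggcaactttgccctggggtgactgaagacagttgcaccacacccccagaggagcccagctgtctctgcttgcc

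The other 4 had higher means with Prox1.

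Ccne1 window, chr7:38125579-38125779: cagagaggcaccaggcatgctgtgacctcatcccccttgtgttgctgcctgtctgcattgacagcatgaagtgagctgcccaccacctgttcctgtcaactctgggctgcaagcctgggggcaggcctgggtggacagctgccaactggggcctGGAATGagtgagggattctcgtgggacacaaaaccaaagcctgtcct

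Cdkn1a window, chr17:29116109-29116309: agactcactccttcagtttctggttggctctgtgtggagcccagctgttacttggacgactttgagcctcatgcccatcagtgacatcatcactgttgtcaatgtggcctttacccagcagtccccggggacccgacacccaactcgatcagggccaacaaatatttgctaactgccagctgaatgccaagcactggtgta

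Ccnd3 window, chr17:47543360-47543560: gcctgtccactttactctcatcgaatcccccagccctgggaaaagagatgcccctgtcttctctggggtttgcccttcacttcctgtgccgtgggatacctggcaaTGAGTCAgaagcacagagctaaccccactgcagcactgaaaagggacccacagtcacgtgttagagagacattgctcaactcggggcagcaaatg

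Cdk6 window, chr5:3491984-3492184: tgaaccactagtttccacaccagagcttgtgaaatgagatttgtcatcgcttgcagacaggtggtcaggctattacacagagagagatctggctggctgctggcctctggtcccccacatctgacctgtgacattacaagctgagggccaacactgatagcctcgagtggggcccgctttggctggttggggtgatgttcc

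Over all 133 peaks, accessibility was mostly a little lower with Prox1, by less than in the table as a whole. Values are given as the log2 difference of the group means, 4in1_Prox1_OE minus 4in1_GFP_OE, so that −1 is a halving and a difference of at least 1 in either direction is called 2-fold. At least 2-fold lower means were found at 21 peaks (15.8%), against 24.4% of all peaks, and at least 2-fold higher means at 6 (4.51%), against 8.33%. The remaining 106 lay within 2-fold. The mean was lower at 100 peaks (75.2%, exact Clopper-Pearson 95% interval over peaks 67.0% to 82.3%), against 72.3% of all peaks. The median difference was −0.31 (quartiles −0.80 and −0.019), against −0.42 over all peaks. The table gives no value per library, so no SD, test or p-value between libraries could be computed, the depth of each library is unknown, and the interval covers counting of peaks only. Fewer cells with an open site and less opening in each cell cannot be told apart in bulk libraries.

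**Figure D1:**
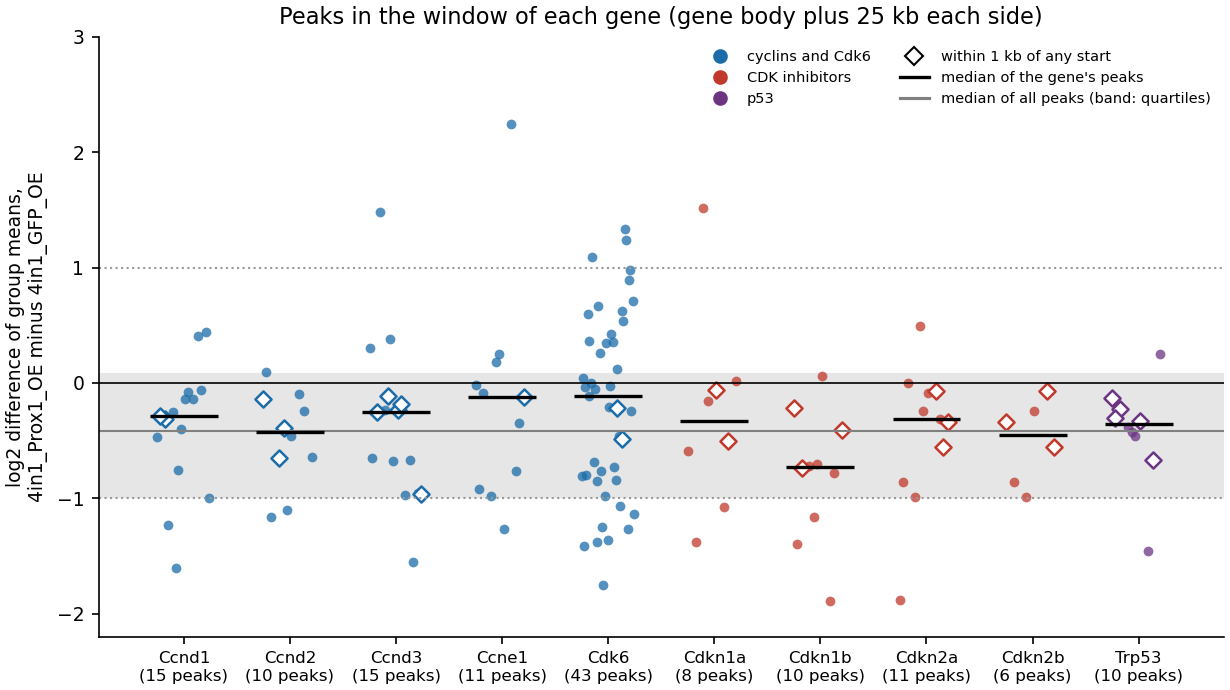
Log2 difference of group means (y axis) of each peak in the window of each gene (x axis). Circles are distal peaks, diamonds lie within 1 kb of any annotated start, black bars are medians per gene, and the grey line and band are the median and quartiles of all 176680 peaks; the diamonds all sit below 0 while distal peaks run from −1.89 to 2.25.

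Where 0 is placed decides the direction of small differences. Summed over all peaks, the Prox1 arm held 0.751 of the normalized reads of the GFP arm. With the median of all peaks set to 0, a shift of 0.42, 7 member peaks were at least 2-fold lower (5.26%, against 8.64% of all peaks) and 12 at least 2-fold higher (9.02%, against 13.4%), and 9 of those 12 lay in the Cdk6 window. The median over the members was then 0.11. Directions below are those of the table as deposited.

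Marker genes were read at their most accessible promoter peak. All 10 fibroblast markers had one, with a median difference of −0.38 and values from −1.27 at Prrx1 to 0.20 at Thy1, and 1 of 10 hepatocyte markers did (Apob, −0.23). Macrophage markers had a peak in 2 of 5, with −1.71 at Csf1r and −0.51 at Cd68. Endothelial markers had one in 3 of 4, with −1.59 at Pecam1, −0.68 at Tek and −0.035 at Kdr. Epithelial markers had one in 4 of 4, with −0.76 at Krt8, 0.13 at Cdh1, 0.74 at Krt18 and 1.00 at Epcam. Their median was 0.43, against −0.21 over all promoter peaks. The part of other cell types in the differences below was not tested. Added Prox1 itself was visible, since 3 peaks over coding exons of Prox1 held between 3.42 and 16.1 reads with GFP and between 1632 and 6847 with Prox1, where reads of the transgene would fall.

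**Figure D2:**
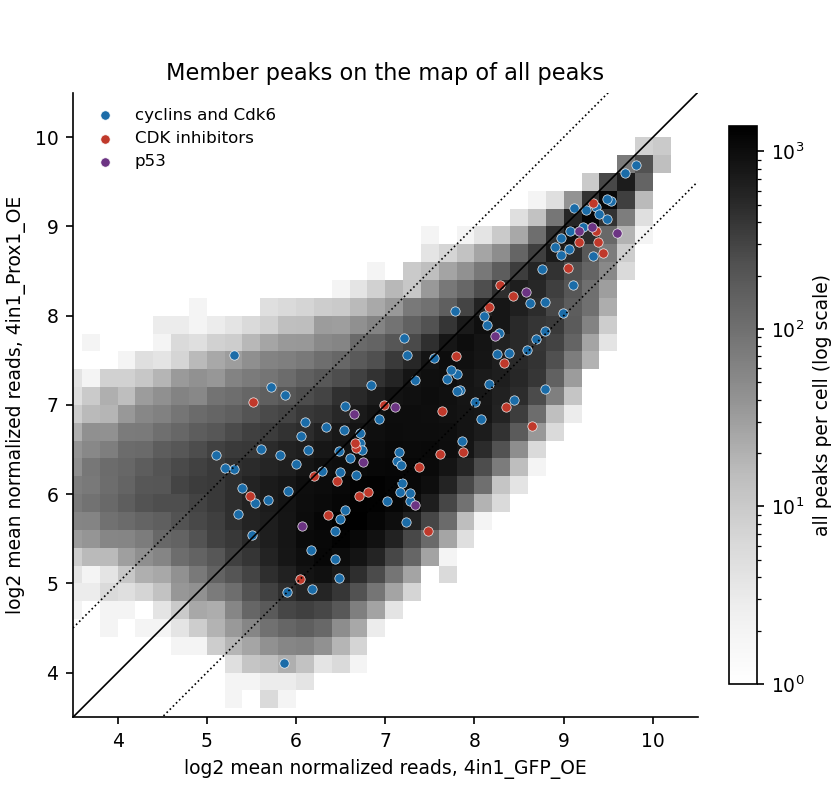
Log2 mean normalized reads of each peak in 4in1_GFP_OE (x axis) and 4in1_Prox1_OE (y axis). Grey cells count all peaks on a log scale, coloured points are the 133 member peaks by role, the solid line is equality, the dotted lines are 2-fold and peaks outside the plotted range are not drawn; 21 points lie below the lower dotted line and 6 above the upper one.

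Promoters of the 10 genes were open in both arms, and none of their means differed by 2-fold. A peak within 1 kb of a start of the gene itself was found for all 10 genes, 15 peaks in all, with between 286 and 897 normalized reads in the GFP arm and between 261 and 826 in the Prox1 arm. All 15 means were lower with Prox1, by a median of −0.33 (from −0.96 to −0.064), and so were 77.9% of all promoter peaks and 92.1% of all peaks in the top decile of mean concentration. Among all 22215 promoter peaks of the table, 8.26% were at least 2-fold lower and 3.16% higher, and the median difference was −0.21. With that promoter median set to 0, 11 of the 15 peaks lay below it and 4 above, and with the median of all peaks at 0 the split was 6 below and 9 above.

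**Figure D3:**
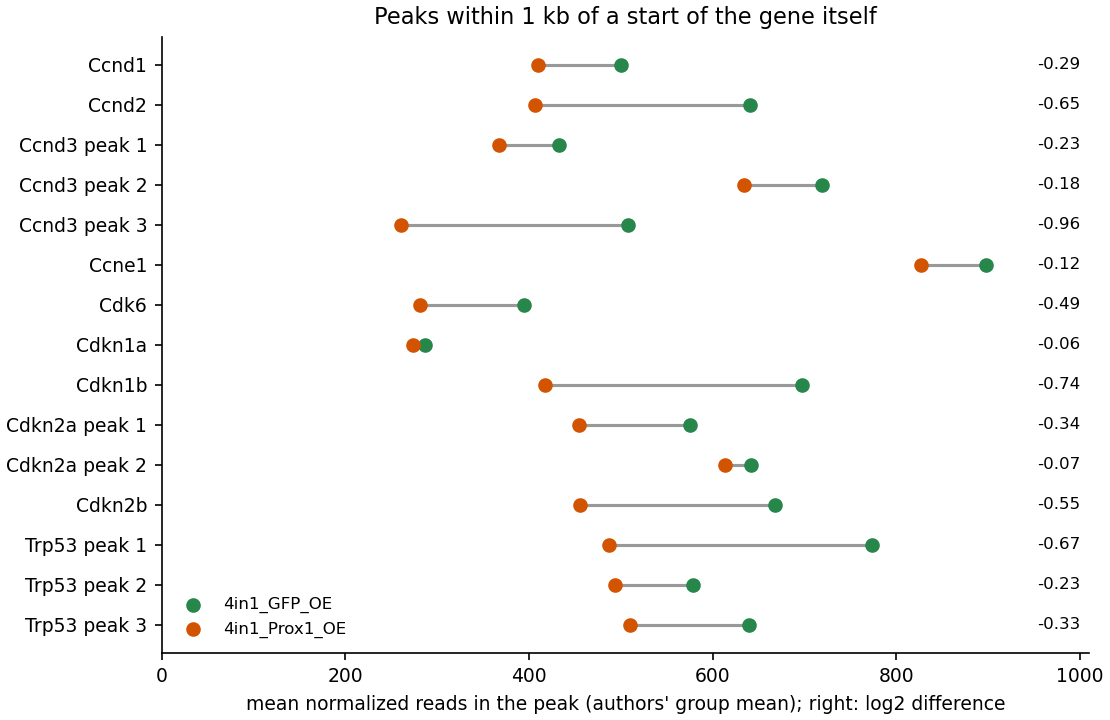
Mean normalized reads (x axis) in 4in1_GFP_OE (green) and 4in1_Prox1_OE (orange) of the 15 peaks within 1 kb of a start of the gene itself, one row per peak with its log2 difference at the right. Every orange point lies to the left of its green point, with the most negative log2 difference at Ccnd3 peak 3, from 508 to 261 reads; numbered peaks follow the order of the chromosome.

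Of the D-type cyclins, Ccnd2 had a more negative difference at its start than Ccnd1. The peak at the Ccnd2 start (chr6:127150964-127151164, in the UTR) held 640 reads with GFP and 407 with Prox1, a difference of −0.65. Of all promoter peaks, 16.9% had a lower value. Ccnd1, the D-type cyclin most tied to growth factor signalling, held 500 and 410 reads at its start (chr7:144939699-144939899), a difference of −0.29.

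Ccnd3 has starts far apart, with different values. The first start (chr17:47505003-47505203) held 433 reads with GFP and 368 with Prox1 (−0.23), and the internal start near chr17:47593327-47593527 held 719 and 635 (−0.18). A further internal start, at chr17:47595847-47596047 within the Ccnd3 body, held 508 and 261 reads, a difference of −0.96 that lies just short of 2-fold. That peak has 1 CpG in its 201 bases, against 25 in the peak at the other internal start. Only 9.03% of promoter peaks had a lower value.

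Ccne1, whose product activates Cdk2 at the end of G1, had the most open promoter of the 10 genes. Its peak (chr7:38107549-38107749, just upstream of the first exon) held 897 reads with GFP and 826 with Prox1, a difference of −0.12. Cdk6, the kinase partner of the D-type cyclins, had a less open start (chr5:3344080-3344280), with 394 and 281 reads and a difference of −0.49.

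The CIP/KIP inhibitors stood far apart in this range. Cdkn1b held 697 reads with GFP and 418 with Prox1 at its start (chr6:134920276-134920476, UTR), a difference of −0.74, and 14.3% of promoter peaks were lower. Cdkn1a held 286 and 274 reads in a peak downstream of its main start (chr17:29094071-29094271), a difference of −0.064, the smallest of the 15 together with the Arf start. That peak also lies within 1 kb of the start of AC167363.2, so its reads cannot be given to either gene.

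Cdkn1a has another start upstream, Cdkn1a-202, and there was no peak of the table within 1 kb of it. Its RefSeq promoter (GRCm38.p6, plus strand, 250 bases up to the start) is shown because p53 is the best known activator of this gene and the window holds a match to the p53 consensus, in capitals, as 0.271% of 32851 RefSeq promoters of the same length did.

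Cdkn1a upstream promoter, chr17:29090729-29090978: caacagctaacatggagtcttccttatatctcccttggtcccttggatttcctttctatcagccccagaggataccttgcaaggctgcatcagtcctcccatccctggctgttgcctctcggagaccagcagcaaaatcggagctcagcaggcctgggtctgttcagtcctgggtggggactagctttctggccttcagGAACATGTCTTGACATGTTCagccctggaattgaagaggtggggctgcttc

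The 1 peak of the Cdkn1a window with a p53 motif (1 mismatch) lay at the start of Trp53cor1 (chr17:29078953-29079153), the lincRNA-p21 gene in the same window. It held 529 reads with GFP and 372 with Prox1, a difference of −0.51. A match describes letters only and says nothing of whether p53 was bound.

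The INK4 locus has 3 promoters, for p16, Arf and p15, and all were open in these fibroblasts. The p15 start of Cdkn2b (chr4:89310765-89310965, coding exon) held 667 reads with GFP and 455 with Prox1, a difference of −0.55. The p16 start of Cdkn2a (Cdkn2a-201, chr4:89282163-89282363) held 576 and 454 reads, a difference of −0.34. The Arf start (Cdkn2a-202, chr4:89294683-89294883), 12.46 kb further upstream, held 642 and 613 reads, a difference of −0.067. Both Cdkn2a promoters are printed because one gene showed both values: the peak at the Arf start on the plus strand and the 250 RefSeq bases before the p16 start in the direction of transcription (minus strand). Capitals mark an E2F motif (TTTNGCGC), held by 1.13% of RefSeq promoters. It lies outside the measured peak at the p16 start, which holds no such motif. The Arf peak has 32 CpGs in 201 bases and the p16 peak 6.

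Cdkn2a window, chr4:89294683-89294883: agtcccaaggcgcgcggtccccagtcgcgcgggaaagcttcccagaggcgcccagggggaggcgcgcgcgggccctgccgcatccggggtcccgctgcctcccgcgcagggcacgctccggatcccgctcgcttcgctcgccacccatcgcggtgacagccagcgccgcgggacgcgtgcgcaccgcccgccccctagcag

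Cdkn2a p16 promoter, chr4:89282193-89282442: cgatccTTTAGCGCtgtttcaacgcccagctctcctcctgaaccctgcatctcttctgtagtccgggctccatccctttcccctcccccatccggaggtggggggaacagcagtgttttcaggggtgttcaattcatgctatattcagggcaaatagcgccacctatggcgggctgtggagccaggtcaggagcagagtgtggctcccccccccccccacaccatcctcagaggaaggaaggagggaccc

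Trp53 shares its start region with Wrap53, which is transcribed from the other strand. The peak at the Trp53 start (chr11:69580226-69580426) held 578 reads with GFP and 494 with Prox1 (−0.23), and the peak in an intron (chr11:69581405-69581605) held 640 and 510 (−0.33). The third peak, chr11:69579200-69579400 in the Wrap53 UTR, held 773 and 487 reads, a difference of −0.67. It was the most open of the 3 with GFP and the least open with Prox1. The peaks at the start and in the Wrap53 UTR lie within 1 kb of starts of both genes.

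Other genes of the pathway were read at 1 peak each, their most accessible one within 1 kb of a start, and the 10 genes were read the same way for comparison. On that measure the 10 genes had a median difference of −0.39, and 6 of them lay below the median of all promoter peaks. The 17 G1/S partners, such as Cdk2, Cdk4, Rb1 and the E2F genes, all had a promoter peak, with a median of −0.17 and 6 of 17 below that promoter median. Differences ran from −0.36 at Cdkn2c (758 reads with GFP and 589 with Prox1), −0.36 at Cdc25a and −0.31 at E2f4 to −0.0099 at Cdk2, 0.13 at E2f2 and 0.32 at Cdkn1c. Cdkn1c encodes p57, the third CIP/KIP inhibitor, and held 309 and 385 reads.

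The 18 genes of S, G2 and M phases, which encode the mitotic cyclins, kinases and the MCM helicase, had a median of −0.18, and 6 of 18 lay below the promoter median. They ran from −0.36 at Plk1, −0.31 at Ccna2 and −0.28 at Cdk1 to −0.057 at Mcm6, −0.043 at Bub1 and 0.011 at Mcm7. Of 15 targets and regulators of p53, 14 had a promoter peak and Trp63 had none. Their median was −0.20, from −0.35 at Btg2, −0.33 at Gadd45a and −0.30 at Pmaip1 to −0.0047 at Mdm2, 0.016 at Bax and 0.40 at Bbc3, with 7 of 14 below the promoter median. None of these 49 promoter peaks differed by 2-fold in either direction. The promoters of Cdkn1b, Trp53, Ccnd2, Cdkn2b and Cdk6 lay below the lowest of the 49, as did 31.5% of all promoter peaks, and the other 5 genes did not. This depended on the peak read: for Trp53 it is the one in the Wrap53 UTR, and its other promoter peaks, at −0.23 and −0.33, lay above the lowest of the 49. For Ccnd3, a less accessible promoter peak, at −0.96, lay below it. The 10 genes and the lists were not compared by a test, and the group means carry no error.

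**Figure D4:**
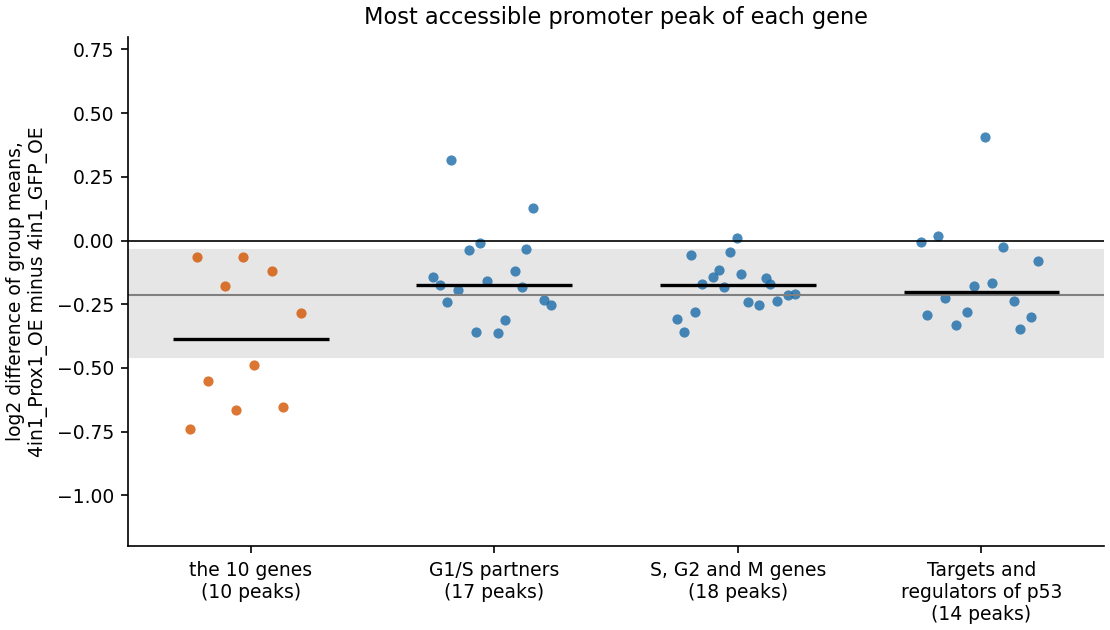
Log2 difference of group means (y axis) of the most accessible promoter peak of each gene, for the 10 genes (orange) and the 3 lists of other genes (blue). Black bars are medians (−0.39, −0.17, −0.18 and −0.20 from left to right), and the grey line and band are the median and quartiles of all promoter peaks; 5 of the 10 orange points lie below every blue point, as do 31.5% of all promoter peaks.

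Promoters of neighbouring genes in the same windows were lower as well, by similar amounts. There were 11 such peaks, all with lower means (against 77.9% of all promoter peaks), with a median of −0.25 (against −0.21) and differences from −0.51 (Trp53cor1) to −0.12 (Bysl and Med20). Tigar, a p53 target next to Ccnd2, held 656 reads with GFP and 594 with Prox1 (−0.14), and Lockd, a noncoding gene beside Cdkn1b, held 659 and 496 (−0.41).

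Larger differences lay away from promoters. All 21 peaks with at least 2-fold lower means and all 6 with at least 2-fold higher means were among the 107 distal peaks, further than 1 kb from any start: 13 of the 21 were in introns, 7 were intergenic and 1 was in a UTR. As a share, 19.6% of the distal peaks were at least 2-fold lower and 5.61% higher, against 26.7% and 9.08% of all distal peaks of the table. Their median difference was −0.35, against −0.49.

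**Figure D5:**
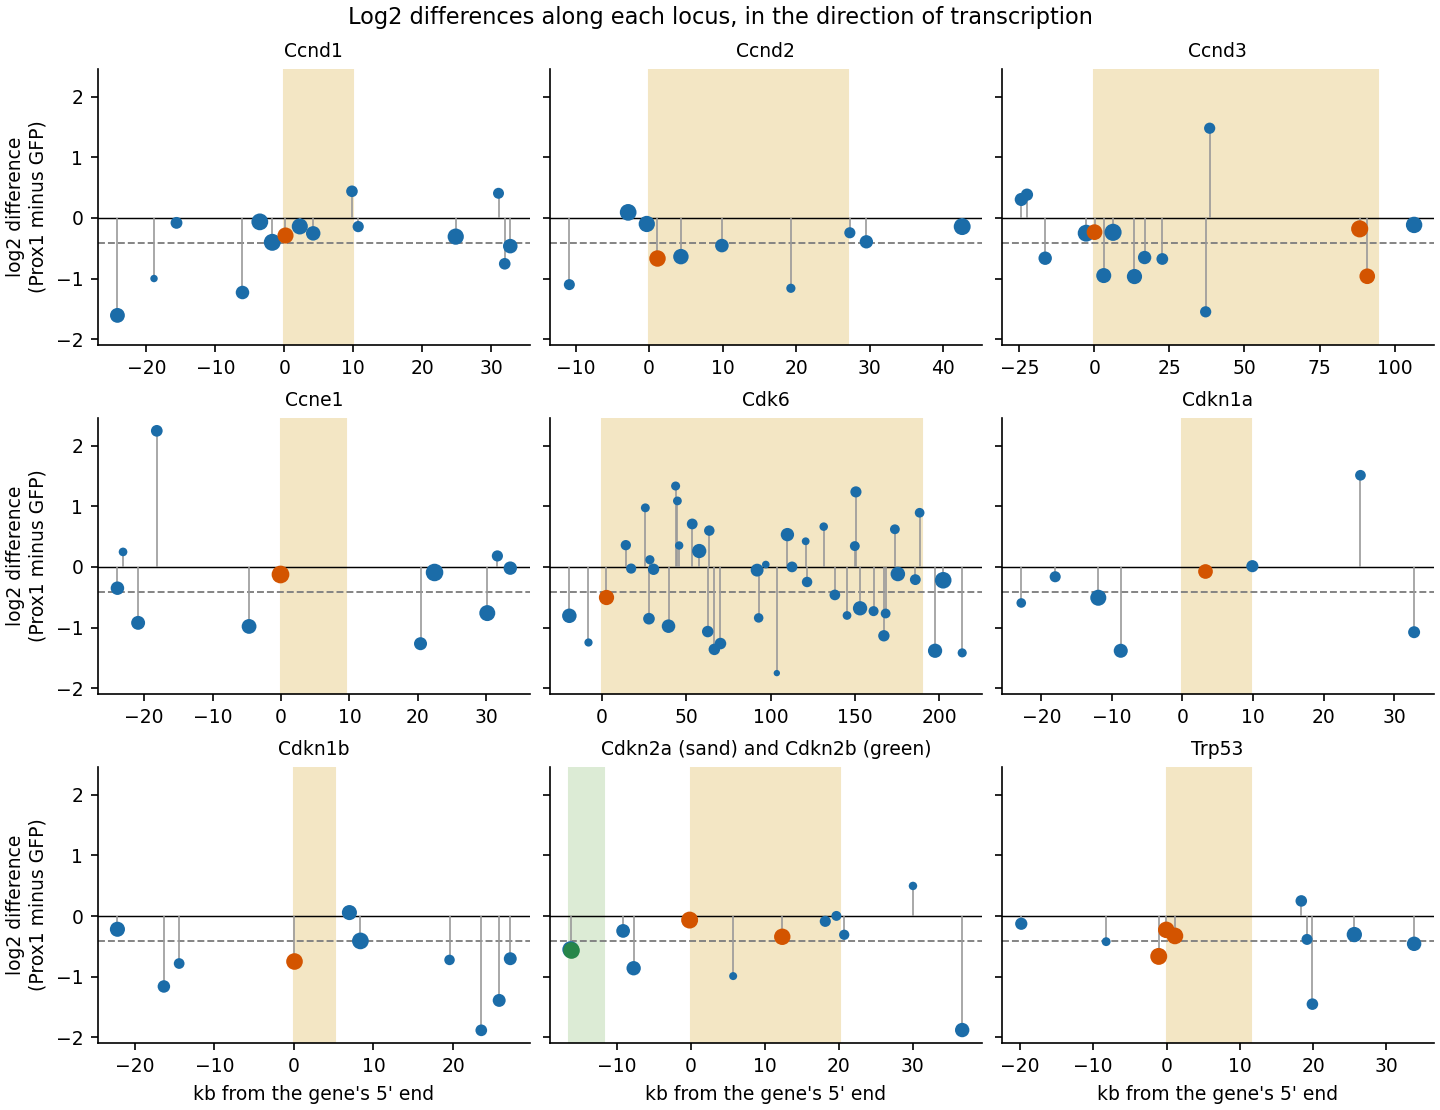
Log2 difference of group means (y axis) of each peak by its distance in kb from the 5′ end of the gene in the direction of transcription (x axis; a separate range in each panel). Shading is the gene body, orange points are peaks at the gene's own starts, the green point is the Cdkn2b start, point area grows with mean concentration and the dashed line is the median of all peaks (−0.42); single peaks of the Ccne1, Cdkn1a and Ccnd3 windows and 3 of Cdk6 stand above 1.

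Around the cyclins, the largest negative difference lay 24.2 kb upstream of Ccnd1. That peak (chr7:144964014-144964214, printed above with its AP-1 motif) held 442 reads with GFP and 145 with Prox1, a difference of −1.61. A peak 6.12 kb upstream of Ccnd1 held 269 and 114 reads (−1.23), while the open region 3.61 kb upstream, with 35 CpGs, held 610 and 583 (−0.065). The Ccnd1 window had 15 peaks, 13 of them with lower means, and its largest positive difference was 0.44, in the UTR it shares with LTO1. The Ccnd2 window had 10 peaks, 9 with lower means and 2 at least 2-fold lower (20%, against 24.4% of all peaks). They ran from −1.16 in a Ccnd2 intron (86.5 and 38.7 reads) to 0.092 upstream.

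The long Ccnd3 body held neighbouring peaks of opposite direction. At chr17:47542024-47542224 the mean was 151 reads with GFP and 51.4 with Prox1 (−1.55), and 1.34 kb away, at chr17:47543360-47543560, it was 52.8 and 147 (1.48). Both lie in a Ccnd3 intron about 37.0 and 38.3 kb from the nearest start, both are printed above, and the second holds an AP-1 motif. Of 31 pairs of member peaks whose starts were within 2 kb of each other, 14 had differences of opposite sign, and this was the 1 pair of opposite sign with both past 2-fold. The median gap within a pair was 0.58. The same values were not computed for neighbouring pairs over all peaks, so such pairs cannot be called particular to these windows.

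The largest difference of all 133 peaks was an increase in the Ccne1 window. The intergenic peak at chr7:38125579-38125779, 18.1 kb upstream of the Ccne1 start, held 39.6 reads with GFP and 188 with Prox1, a difference of 2.25, or 4.75-fold higher. Of all peaks, 98.5% had a lower value, and 99.6% of those in the same decile of mean concentration did. The peaks on either side of it were lower with Prox1: the peak 4.66 kb upstream of Ccne1 held 386 and 195 reads (−0.98) and that 20.9 kb upstream held 286 and 151 (−0.92). On the other side of the gene, 20.4 kb past the start, the lowest peak of the window held 232 and 96.6 reads (−1.27).

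Cdk6 had the longest window and the most peaks, 43, and they went both ways. Lower means were found at 25 and higher means at 18, with a median of −0.12. At least 2-fold lower were 8 (18.6%, against 24.4% of all peaks) and at least 2-fold higher 3 (6.98%, against 8.33%). Cdk6 peaks were weak, with a median mean concentration of 6.38, against 7.59 for the 90 peaks of the other windows, of which 75 had lower means. In deciles 4 and 5 of all peaks by mean concentration, whose medians of 6.31 and 6.57 lie on either side of that of Cdk6, 68.5% and 72.5% had lower means, against 58.1% in the Cdk6 window. The part of peak strength in the Cdk6 values was not tested.

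The lowest peaks of the Cdk6 window at or over the 25th percentile of concentration (well covered) held 348 reads with GFP and 133 with Prox1 (chr5:3538879-3539079, past the 3′ end, −1.38) and 156 and 60.6 (chr5:3408084-3408284, intron, −1.36). The lowest value of the window was at chr5:3445106-3445306, which held 58.2 and 17.3 (−1.75), with a mean concentration in the lowest 25% of the table. The highest of the well covered peaks was chr5:3491984-3492184, printed above, in an intron 148 kb from the start, with 58.6 reads with GFP and 138 with Prox1 (1.24). At least 2-fold higher means were also found at the weak intronic peaks chr5:3385127-3385327 (34.3 and 86.6 reads, 1.34, the highest value of the window) and chr5:3386189-3386389 (36.8 and 78.4 reads, 1.09), which lie 1.06 kb apart. The next highest differences among well covered peaks were 0.90, 0.71, 0.62, 0.60 and 0.53, all at Cdk6 peaks with between 48.8 and 149 reads in the GFP arm.

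Around the inhibitors, Cdkn1b had the most negative median of the 10 windows, −0.73. Of its 10 means 9 were lower, as in the Ccnd2 and Trp53 windows, and 3 at least 2-fold (30%, against 24.4% of all peaks). Its lowest peak (chr6:134943851-134944051, printed above with its TEAD motif) lies in an intron of Lockd 23.4 kb past the Cdkn1b start and held 178 reads with GFP and 48.2 with Prox1, a difference of −1.89, or 3.70-fold lower. Of all peaks, 0.819% had a lower value. Further on in the same intron, chr6:134946100-134946300 held 234 and 89.1 reads (−1.39). The highest value of the window was 0.057, at a CpG-rich intergenic peak with 312 and 325 reads.

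Cdkn1a had 8 peaks spread over its window, 2 at least 2-fold lower and 1 higher (25% and 12.5%, against 24.4% and 8.33% of all peaks). The lowest, 8.74 kb upstream between Trp53cor1 and Cdkn1a (chr17:29082136-29082336), held 327 reads with GFP and 126 with Prox1, a difference of −1.38, and holds an AP-1 motif. The highest, chr17:29116109-29116309 in an intron of Rab44, held 45.8 and 131 reads (1.51). A further peak in Rab44 introns held 167 and 79.0 reads (−1.08).

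At the INK4 locus, 11 peaks lay in the Cdkn2a window, 9 of them with lower means. The lowest was chr4:89257847-89258047, in an intron of the noncoding gene Gm12606 beyond the 3′ end of Cdkn2a, with 399 reads with GFP and 108 with Prox1, a difference of −1.88. It holds a pair of AP-1 motifs (printed above), and 0.840% of all peaks had a lower value. The highest, also in Gm12606, held 44.6 and 63.0 reads (0.50). All 6 peaks of the Cdkn2b window are shared with Cdkn2a, none was past 2-fold, and their median was −0.45. An intronic peak between the p16 and Arf starts held 66.0 and 33.2 reads, a difference of −0.99 that is just outside the 2-fold threshold, as is a peak 18.9 kb upstream of Ccnd1 with 59.7 and 29.9 reads. The values nearest to the threshold on its inside were −1.07 at the Cdk6 intron peak chr5:3404164-3404364 and −1.08 in Rab44.

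Trp53 had 10 peaks, 9 with lower means, a median of −0.36 and narrow quartiles of −0.45 and −0.25. The exception in size was a peak in the UTR of Atp1b2, 19.9 kb past the Trp53 start, with 161 reads with GFP and 58.7 with Prox1, a difference of −1.45. The neighbouring peaks, within 2 kb, held 107 and 82.2 reads (−0.39) and 100.2 and 119 reads (0.25, the highest of the window).

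AP-1 motifs were held by 10 of the 21 member peaks with at least 2-fold lower means. The 25 member peaks with an AP-1 motif were all distal (18.8% of member peaks, against 23.0% of all peaks), and 40.0% of them were at least 2-fold lower, against 40.8% of all peaks with the motif. Their median difference was −0.78, against −0.84. The 82 distal member peaks without it had 11 at least 2-fold lower (13.4%) and a median of −0.25, against 21.9% and −0.37 over all distal peaks without the motif. Of the 25, 14 lay in the Cdk6 window and none in a promoter, and the AP-1 peak of the Ccnd3 pair was the 1 with an at least 2-fold higher mean.

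TEAD motifs were held by 26 member peaks (19.5%, against 20.1% of all), 6 of them at least 2-fold lower (32.5% of all peaks with the motif were) and 1 higher, with a median of −0.25 against −0.64 for all peaks with the motif. CTCF motifs were held by 12 (9.02%, against 10.5%), of which none was at least 2-fold lower (5.51% of all peaks with the motif were) and 1 was higher. A Prox1 consensus match, with up to 1 mismatch, occurred in 2 member peaks, both around Cdk6, against 538 of all peaks (0.305%). Both member peaks were within 2-fold (−0.81 and 0.35). Of all peaks with the match, 37.7% were at least 2-fold lower, and their median was −0.75. An E2F motif (TTTNGCGC) was found in 1 peak, in the Ccnd1 window (−0.76). The GATAAG motif of GATA factors was in 3 peaks (2.26%, against 4.41% of all), with a median of −0.76 against −0.60. None was past 2-fold (30.6% of all peaks with the motif were at least 2-fold lower). The TGTTTAC motif of FOXA factors was in 5 (3.76%, against 2.65%), 2 of them at least 2-fold lower (24.3% of all peaks with the motif were), with a median of −0.23 against −0.39. Motifs were searched on both strands, none of them contains another, and a match is a description of the letters.

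Strength and base composition moved with the differences. The 62 member peaks in the top 3 deciles of mean concentration had a median of −0.37, with 6 at least 2-fold lower and none higher (all peaks of those deciles: −0.41, with 22.9% lower and 0.485% higher). The 47 in the middle 4 deciles had a median of −0.21, with 11 lower and 4 higher (all peaks: −0.57, with 29.9% and 6.05%). The 24 in the lowest 3 deciles had a median of 0.080, with 4 lower and 2 higher (all peaks: −0.16, with 18.6% and 19.2%). Across the 133 peaks, the difference correlated with GC content at a Pearson r of 0.22 (Spearman 0.25) and with mean concentration at −0.13 (Spearman −0.14), against 0.17 and −0.22 (Pearson) over all peaks. These are descriptions across peaks that share the same libraries and base composition, and their part in the differences was not tested.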

How the data were processed

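ATAC-seq libraries of 4 groups with 3 replicates each were made on day 2, and the table analysed covers the 6 libraries of 4in1_GFP_OE and 4in1_Prox1_OE. Per the submitters' processing notes the tools were Trimmomatic 0.38, Bowtie2 2.3.4.3 against mm10, SAMtools 1.10, Picard 2.18.16, bedtools 2.27.1, MACS2 2.1.2 and DiffBind 3.4.11. The study's reporting summary names Genrich as the peak caller, so the caller is uncertain. Whether peaks were called per library or on pooled reads is not given in the sources used here.

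The authors deposited concentrations, the log2 of the mean normalized reads of a peak in each group and over both groups. DiffBind counts reads in windows around summits, here 201 bases for all but 8 peaks. The study's methods point to the vignette of that DiffBind version for the comparison and name no normalization setting themselves. The table's own fold changes, p-values and FDR, and a pair of lists of called peaks, hold the authors' comparison and were not used. Each value is the concentration in the Prox1 arm minus that in the GFP arm, turned into reads as 2 to its power where reads are given. There is 1 mean per group, so nothing was tested, replicates could not be compared, and the depth per library and hence the precision of a mean is unknown.

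Windows, exons and starts came from GENCODE M21, sequence from GRCm38.p6 and promoter sequence from RefSeq (8 of the 10 genes had an entry). Peak coordinates, which lay within the GRCm38 chromosomes, are printed 1-based. Peaks within 1 kb of a start were called promoter peaks. Motifs were searched as consensus letters written from general knowledge, both strands, with up to 1 mismatch for CTCF and Prox1 and up to 2 for p53. The 10 genes, the lists and the motifs were chosen with earlier results of these data known. Named were each gene's own promoter peaks, the lowest and highest peak of each window, the 10 lowest and 10 highest member peaks with a mean concentration at or over the 25th percentile (6.06), and the 3 lowest and 3 highest genes of each list; other peaks named were chosen after their values were seen. Alternatives were 4 placements of 0, other folds and windows, a filter on weak peaks and the omission of neighbours' promoters. The counting, windowing and motif steps were tested on simulated data. Software used was samtools 1.23.1 and, in Python 3.11.15, pysam 0.24.0, scipy 1.17.1, pandas 2.3.3, numpy 2.4.6 and matplotlib 3.10.9.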

Additional observations from a re-analysis of the deposited data

How the results depend on the processing

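The counts and medians of the 133 peaks depended on where 0 was placed. With the median of all peaks at 0, 7 peaks were at least 2-fold lower and 12 higher, 43.6% had lower means and the median difference was 0.11, so its sign turned. Scaling both arms to equal summed reads gave 7, 12, 43.6% and 0.10 (all peaks: 50.2% with lower means). With the most accessible 10% of peaks at 0, 13 were lower (9.77%, against 13.9% of all peaks), 51.9% had lower means (against 58.0%) and the median was −0.046 (against −0.15). With the median of promoter peaks at 0 the share was 59.4% (against 60.9%) and the median −0.094 (against −0.20). The share with lower means was thus above that of all peaks as deposited, and below it under these 4 placements of 0. At 1.5-fold, 50 peaks were lower and 12 higher (37.6% and 9.02%, against 42.4% and 13.4% of all peaks), and at 3-fold 4 and 1 (3.01% and 0.752%, against 4.42% and 4.01%). With the gene bodies alone 7 of 65 peaks were at least 2-fold lower, with 10 kb added 12 of 92, and with 50 kb added 34 of 200, with 10 higher. Without the Cdk6 window, an alternative chosen after seeing the data, 13 of 90 were lower and 3 higher (14.4% and 3.33%). Lower means were then found at 83.3%, against 72.3% of all peaks.

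Leaving out the 25% of peaks with the lowest concentration (17 lower, 4 higher, median −0.31) or all peaks within 1 kb of another gene's start, which left 119 peaks and also took out the Cdkn1a and Trp53 promoter peaks shared with other genes (21 lower, 6 higher, median −0.34), moved these values little. A distance of 2 kb in place of 1 kb added 2 promoter peaks, at Ccnd1 (−0.40) and Ccnd2 (−0.10), so that all 17 had lower means. The split of the 15 promoter peaks under other placements of 0, chosen after seeing the data, was 6 lower and 9 higher with all peaks or equal sums and 9 lower and 6 higher with the most accessible 10%. No paired analysis was possible because each group enters as 1 mean, and for the same reason no replicate could be left out.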
